A study of Homo sapiens with 32 samples.

Results

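The shortest chromatin loops of human HEK293 cells with and without sorbitol were examined. They are the loops whose anchors start 75 kb or less apart, and 3384 of the 45629 deposited loops met this limit. The loops come from in situ Hi-C, which ligates and sequences pieces of DNA that lie close together in the nucleus. Each of 4 lists holds the loops called in 1 condition: wild-type (WT) cells and cells carrying eGFP-YAP, each untreated (control) or exposed to 200 mM sorbitol for 1 h. HEK293 is a human embryonic kidney line, YAP is a transcriptional co-activator that responds to cell mechanics and osmolarity, and sorbitol draws water out of cells. According to the design text, eGFP-YAP cells were starved of serum for 1 h before sorbitol. The labels name 3 replicates of each WT condition and 4 of each eGFP-YAP condition. The growth protocol speaks of HEK293T where the labels have HEK293, and no source used here gives the promoter of the eGFP-YAP gene or says whether the line is 1 clone. Each list is a single pooled call with no replicate values, so differences between lists have intervals that cover counting error only, treat neighbouring loops as independent, and are not tests between conditions. The other 18 of the 32 samples of the series were not analysed here.

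Most loops of resting cells form where the ring-shaped cohesin complex extrudes DNA until it meets CTCF, a zinc-finger protein bound to its motif, and they are strongest between motifs that point towards each other. Other contacts join promoters to enhancers or to other promoters, or bring the start of a gene close to its own 3′ end. Over distances of the loops studied here, such contacts can be as short as a single gene.

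The sequences below show the 2 kinds of anchor on which the results turn. The first 4 are matches to the 14-base CTCF core motif, in capitals, with 20 bases on each side. They are read 5′ to 3′ along the strand of the motif, from anchors of a loop around CALCOCO2 found in all 4 lists and of a loop at ITGA3 found only in the controls. In both loops the left match is on the plus strand and the right match on the minus strand, so the pairs point towards each other. The anchors are those of the WT loops. The right CALCOCO2 match lies outside the right anchor of the eGFP-YAP loop.
CALCOCO2 loop, left anchor, chr17:48814581-48814634, plus strand, 1 mismatch: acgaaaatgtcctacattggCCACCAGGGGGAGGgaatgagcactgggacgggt
CALCOCO2 loop, right anchor, chr17:48884822-48884875, minus strand, 1 mismatch: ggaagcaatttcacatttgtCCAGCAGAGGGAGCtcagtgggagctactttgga
ITGA3 loop, left anchor, chr17:50026979-50027032, plus strand, 1 mismatch: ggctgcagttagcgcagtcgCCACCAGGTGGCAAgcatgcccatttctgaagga
ITGA3 loop, right anchor, chr17:50087607-50087660, minus strand, 0 mismatches: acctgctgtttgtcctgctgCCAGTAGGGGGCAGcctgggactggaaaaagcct
The left CALCOCO2 match lies in TTLL6, the right ITGA3 match lies in an exon of ITGA3, and the other matches lie in no protein-coding gene. All positions are in hg38.

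The next 3 sequences are the 150 bases before the RefSeq start (GRCh38.p14) of genes that start at anchors of loops called only with sorbitol in both lines. CG dinucleotides are in capitals.
ZBTB2, chr6:151391560-151391709, minus strand: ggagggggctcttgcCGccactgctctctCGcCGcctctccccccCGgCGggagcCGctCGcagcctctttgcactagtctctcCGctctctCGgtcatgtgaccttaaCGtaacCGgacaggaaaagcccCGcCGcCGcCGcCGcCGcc
SLC25A6, chrX:1392114-1392263, minus strand: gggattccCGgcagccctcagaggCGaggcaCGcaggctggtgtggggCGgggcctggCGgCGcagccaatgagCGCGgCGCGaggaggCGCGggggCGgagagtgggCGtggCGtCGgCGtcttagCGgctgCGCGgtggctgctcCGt
PPFIA4, chr1:203026341-203026490, plus strand: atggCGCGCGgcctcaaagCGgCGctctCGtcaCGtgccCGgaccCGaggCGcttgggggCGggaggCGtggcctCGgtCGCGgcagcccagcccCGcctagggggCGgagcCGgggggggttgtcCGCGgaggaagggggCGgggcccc
These 3 are shown because their windows lie in no annotated protein-coding gene. They hold 17, 21 and 21 CG dinucleotides. Of all 9 named genes of this set whose RefSeq start lies in the anchor, the counts ran from 7 (ASMTL, at the other anchor of the SLC25A6 loop) to 21 with a median of 16. The median over the 15315 protein-coding genes matched to a RefSeq window was 12 in the same 150 bases.

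Fewer short loops were listed with sorbitol than without, but their number was lower by a smaller factor than that of longer loops. The WT control list held 1020 loops of 75 kb or less among 15180 (6.72%, Wilson 95% interval 6.33 to 7.13), and the WT sorbitol list held 596 among 5906 (10.1%, 9.35 to 10.9). The eGFP-YAP control list held 1247 among 18966 (6.57%, 6.23 to 6.94), and the eGFP-YAP sorbitol list held 521 among 5577 (9.34%, 8.61 to 10.1). In both lines short loops therefore made up a larger share of the sorbitol list, although they were fewer in number. The ratio of sorbitol to control counts was 0.584 (exact interval 0.527 to 0.647) in WT and 0.418 (0.376 to 0.463) in eGFP-YAP. For loops over 75 kb it was 0.375 (0.363 to 0.387) and 0.285 (0.277 to 0.294), so the intervals of short and longer loops do not overlap in either line. Sequencing depth is not given in the sources used here, and its part in these counts was not tested.

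Within the short loops the ratio was highest at the shortest spans. No list held a loop under 35 kb. At 35 kb, the shortest span, the WT lists held 46 control and 54 sorbitol loops, and the eGFP-YAP lists held 79 and 50. At 75 kb the counts were 204 and 88 in WT and 234 and 77 in eGFP-YAP. Control loops thus rose 4.43-fold in number from the shortest to the longest of these spans in WT and 2.96-fold in eGFP-YAP, while sorbitol loops rose 1.63-fold and 1.54-fold. The ratio of sorbitol to control was 0.758 (0.626 to 0.915) for loops of 35 to 50 kb in WT and 0.525 (0.464 to 0.593) for those of 55 to 75 kb. In eGFP-YAP it was 0.505 (0.414 to 0.613) and 0.389 (0.343 to 0.439). Beyond the limit it fell further, to 0.314 in WT and 0.238 in eGFP-YAP at 500 kb and over.

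**Figure D1:**
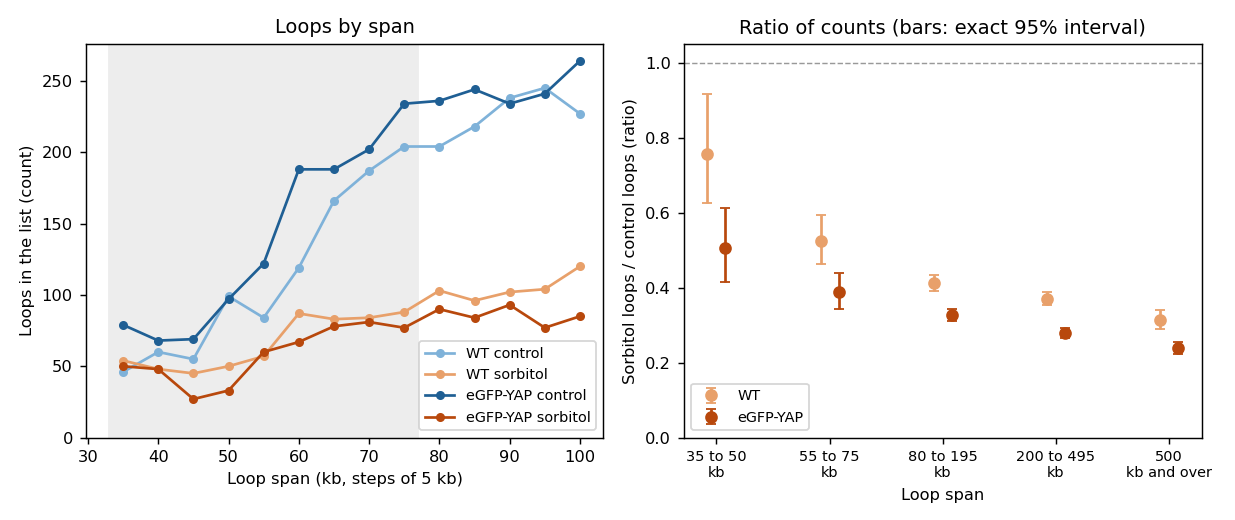
Left, number of loops (vertical axis) at each span in kb (horizontal axis) in the 4 lists, with spans of 75 kb or less shaded. Right, ratio of sorbitol to control counts by class of span in each line, with exact 95% intervals as bars; the ratio was highest at 35 to 50 kb (0.758 in WT, 0.505 in eGFP-YAP) and lowest at 500 kb and over (0.314 and 0.238).

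Short loops had low peak scores in every list. Ranked by the caller's score within its own list, the median short loop stood at percentile 24.2 in the WT control, 26.0 in WT sorbitol, 19.9 in the eGFP-YAP control and 22.7 in eGFP-YAP sorbitol. Loops over 75 kb had medians of 51.8, 53.0, 52.1 and 52.9. The limit of 75 kb marks no step in the values: in the WT control, 9.80% of anchors of the 75 kb loops and 9.56% of those of the 80 kb loops held a gene start. In WT sorbitol the same shares were 34.1% and 26.2%, from 88 and 103 loops, and in eGFP-YAP sorbitol 38.3% and 41.7%, from 77 and 90 loops. Many short loops were nested. A longer loop of the same list contained 60.3% of the short loops of the WT control, 51.7% of WT sorbitol, 74.3% of the eGFP-YAP control and 57.2% of eGFP-YAP sorbitol.

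Few short loops were called both with and without sorbitol. A loop was counted as called again when another list held a loop of any span with both anchors within 10 kb. Of the WT control short loops, 93 of 1020 (9.12%, 7.50 to 11.0) were called again with sorbitol, against 7.81% of all WT control loops. Of the eGFP-YAP control short loops, 88 of 1247 (7.06%, 5.76 to 8.61) were called again, against 9.28% of all loops of that list. The longer loops stood at 7.72% (7.29 to 8.17) in WT, an interval that overlaps that of the short loops, and at 9.44% (9.01 to 9.88) in eGFP-YAP, which lies above it. The eGFP-YAP order did not hold at low scores. The lower 50% of the eGFP-YAP control list by score held 1010 of the 1247 short loops. There 6.14% (4.82 to 7.79) of short and 3.92% (3.53 to 4.35) of longer loops were called again. In the upper 50% the shares were 11.0% (7.60 to 15.6) and 14.5% (13.8 to 15.2), with overlapping intervals. In WT the short loops had the higher share in both ranges, with 6.83% against 3.83% and 16.4% against 11.3%. With the same short loops moved by 100 kb, 1.08% and 1.84% found a partner.

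Seen from the sorbitol lists, short loops were more often without a control partner than longer ones. In WT 88 of 596 sorbitol short loops (14.8%, 12.1 to 17.8) had a partner in the control list, against 20.1% of all sorbitol loops and 20.7% (19.6 to 21.8) of those over 75 kb. In eGFP-YAP 85 of 521 (16.3%, 13.4 to 19.7) had one, against 31.6% of all and 33.1% (31.9 to 34.5) of the longer loops. This left 508 sorbitol-only and 927 control-only short loops in WT, and 436 and 1159 in eGFP-YAP. Among the 136 WT sorbitol short loops in the upper 50% of their list by score, 9.56% (5.67 to 15.7) had a control partner, against 25.7% (24.1 to 27.3) of the longer loops in the same range of scores. In eGFP-YAP these shares were 19.1% (12.8 to 27.4) of 110 and 42.6% (40.8 to 44.5). In the lower 50% by score the WT shares overlapped, with 16.3% (13.2 to 19.96) of 460 short loops and 15.0% (13.7 to 16.5) of longer ones. The eGFP-YAP shares there were 15.6% (12.4 to 19.4) of 411 and 22.5% (20.8 to 24.2). The lower share of short loops in WT thus held in the upper 50% only.

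Between the lines, under the same condition, short loops were found again more often than longer ones. Of the WT control short loops 496 (48.6%, 45.6 to 51.7) were in the eGFP-YAP control list, where 40.2% of all WT control loops were found and 39.6% of the longer ones. In the other direction 496 of 1247 (39.8%, 37.1 to 42.5) were found, against 32.2% of all and 31.7% of the longer loops. Of the WT sorbitol short loops 190 (31.9%, 28.3 to 35.7) were in the eGFP-YAP sorbitol list, against 24.2% of all and 23.4% of the longer loops. In the other direction 179 of 521 (34.4%, 30.4 to 38.5) were found, against 25.7% of all and 24.8% of the longer loops. The lists were unequal in length, and each share is of the list named first. A WT sorbitol short loop was thus found more often in the sorbitol list of the other line than in the control list of its own line (31.9% and 14.8%), although that control list holds more loops. In the upper 50% by score, 51.5% (43.1 to 59.7) of WT sorbitol short loops were in the eGFP-YAP sorbitol list. The names of the lists carry a source that differs between the lines, so line and source cannot be told apart.

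**Figure D2:**
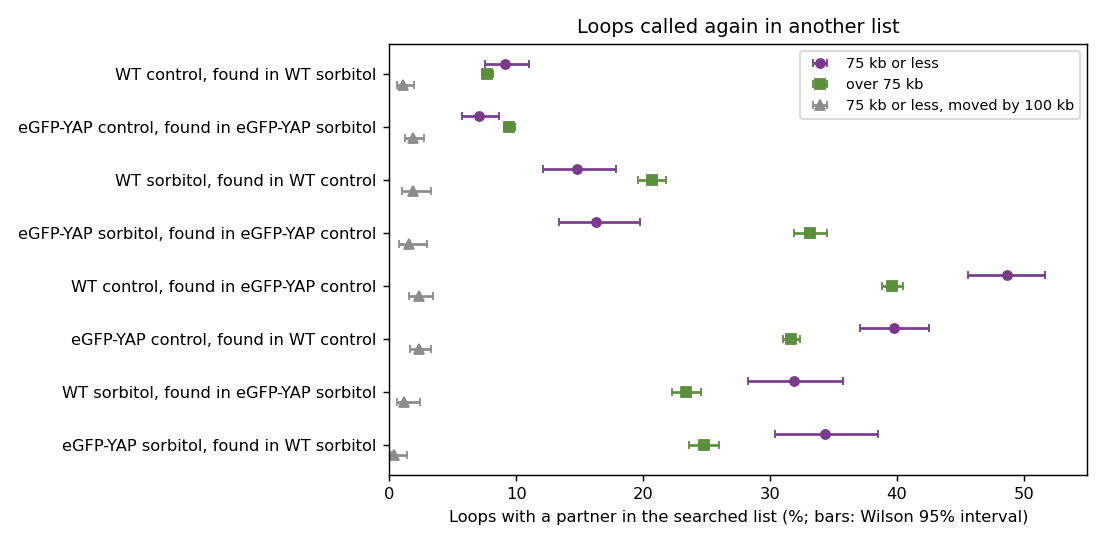
Share of loops (horizontal axis, percent) with a partner within 10 kb at both anchors, for each list and the list searched (vertical axis), with Wilson 95% intervals as bars. Short loops (circles) lie above longer loops (squares) between lines, at 48.6% against 39.6% for the WT control, and below them from sorbitol to control, at 16.3% against 33.1% in eGFP-YAP; short loops moved by 100 kb (triangles) lie at 2.35% or less.

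In all, 121 short loops were sorbitol-only in both lines and 381 were control-only in both lines, while 24 short loops of the WT control were found in all 4 lists. The ends of the sorbitol-only short loops were compared with all anchors of the control lists. In WT 328 of 1016 ends of sorbitol-only short loops (32.3%, 29.5 to 35.2) lay within 10 kb of any anchor of the control list, against 29.8% (27.1 to 32.7) of the moved ends. In eGFP-YAP the shares were 37.6% (34.5 to 40.9) and 31.4% (28.4 to 34.6), a larger difference whose intervals barely meet. For sorbitol-only loops over 75 kb they were 47.0% and 30.1% in WT and 52.2% and 31.3% in eGFP-YAP. A gene start was about as frequent at short sorbitol-only ends near a control anchor (32.3% in WT, 41.5% in eGFP-YAP) as at those away from one (34.9% and 40.1%).

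Gene starts lay at a larger share of anchors in the sorbitol short loops than in the control ones. A start here is the first base of a gene annotated as protein-coding in GENCODE release 44, and 3.07% of all sequenced 5 kb bins of the genome hold one. Of the anchors of short loops, 227 of 2040 (11.1%, 9.84 to 12.6) held a start in the WT control and 385 of 1192 (32.3%, 29.7 to 35.0) in WT sorbitol. In eGFP-YAP the counts were 363 of 2494 (14.6%, 13.2 to 16.0) and 427 of 1042 (41.0%, 38.0 to 44.0). The differences, sorbitol minus control, were 21.2 percentage points (Newcombe interval 18.2 to 24.2) and 26.4 points (23.1 to 29.7). They were larger than for loops over 75 kb, at 14.8 points (14.0 to 15.6) and 17.6 points (16.8 to 18.5). Anchors of the longer loops held a start in 5.36% (WT control), 20.1% (WT sorbitol), 7.22% (eGFP-YAP control) and 24.9% (eGFP-YAP sorbitol) of cases, so within every list the short loops had the higher share.

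Control short loops that were called again with sorbitol had starts more often than those that were not. The shares of anchors were 19.9% (14.8 to 26.2) and 10.2% (8.95 to 11.7) in the WT control and 39.2% (32.3 to 46.6) and 12.7% (11.4 to 14.1) in the eGFP-YAP control. In the sorbitol lists, loops with a control partner stood at 22.2% (16.7 to 28.9) in WT, below the 34.1% (31.2 to 37.0) of sorbitol-only loops, and in eGFP-YAP the shares were 42.9% (35.7 to 50.5) and 40.6% (37.4 to 43.9), with overlapping intervals.

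Beyond 75 kb the share with a start was lower at longer spans in all 4 lists, and it was lowest at 500 kb and over. At 35 to 50 kb it was 12.1%, 31.7%, 14.7% and 40.5% in the order WT control, WT sorbitol, eGFP-YAP control and eGFP-YAP sorbitol. At 500 kb and over it was 3.37%, 13.7%, 3.94% and 14.7%, the control values lying near the genome level. Between 35 to 50 kb and 55 to 75 kb the shares differed by less than their intervals in each list.

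**Figure D3:**
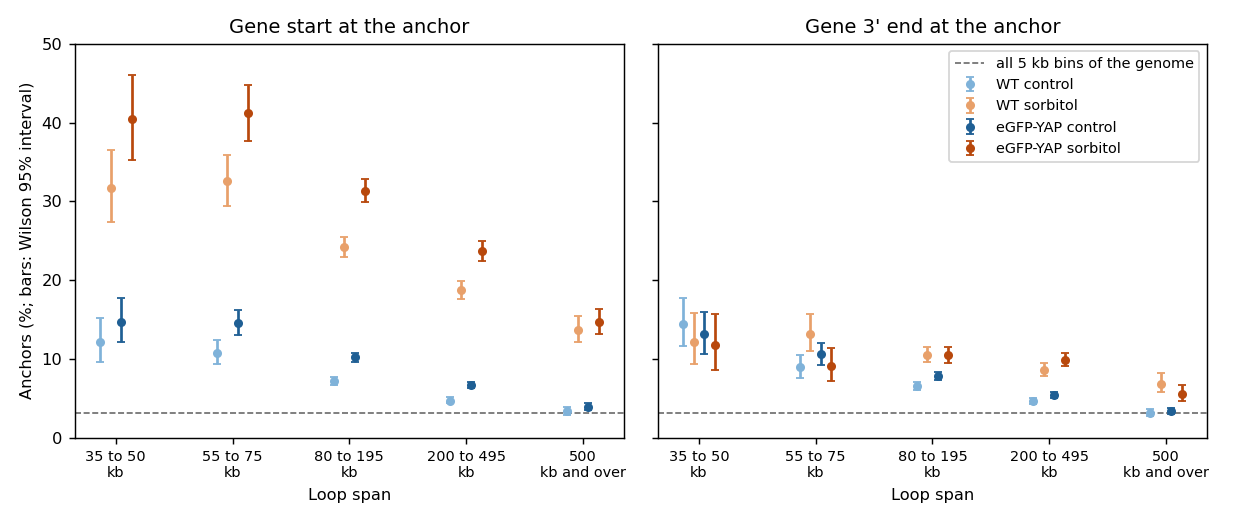
Share of anchors (vertical axis, percent) with the start (left) or the 3′ end (right) of a protein-coding gene by class of loop span (horizontal axis), with Wilson 95% intervals as bars and the genome level as a dashed line. For starts the sorbitol lists lie above the control lists at every span, at 40.5% against 14.7% for eGFP-YAP loops of 35 to 50 kb; for 3′ ends the 4 lists overlap at 35 to 50 kb.

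The share of starts was highest at the anchor bin in every list, by a wide margin only in the sorbitol lists. In the control lists it was 11.1% (WT) and 14.6% (eGFP-YAP) at the anchor bin. The bins 5 kb outside the control loops stood at 10.8% and 14.0%, with overlapping intervals. In WT sorbitol 32.3% of anchor bins held a start, 18.9% of the bins 5 kb outside the loop, 16.1% of those 5 kb inside, and 7.05% of the bins reached by a move of 100 kb. For eGFP-YAP sorbitol the values were 41.0%, 20.1%, 10.6% and 6.14%. Moved control anchors held a start in 7.35% (WT) and 8.22% (eGFP-YAP) of cases, against the genome level of 3.07%. Where all genes starting at an anchor ran the same way, the gene body pointed into the loop at 42.1% (35.6 to 48.8) of anchors in the WT control and 40.8% (35.6 to 46.3) in WT sorbitol. In eGFP-YAP these shares were 46.8% (41.5 to 52.2) and 44.9% (39.9 to 50.1). For longer loops they were 49.3% to 52.5%.

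**Figure D4:**
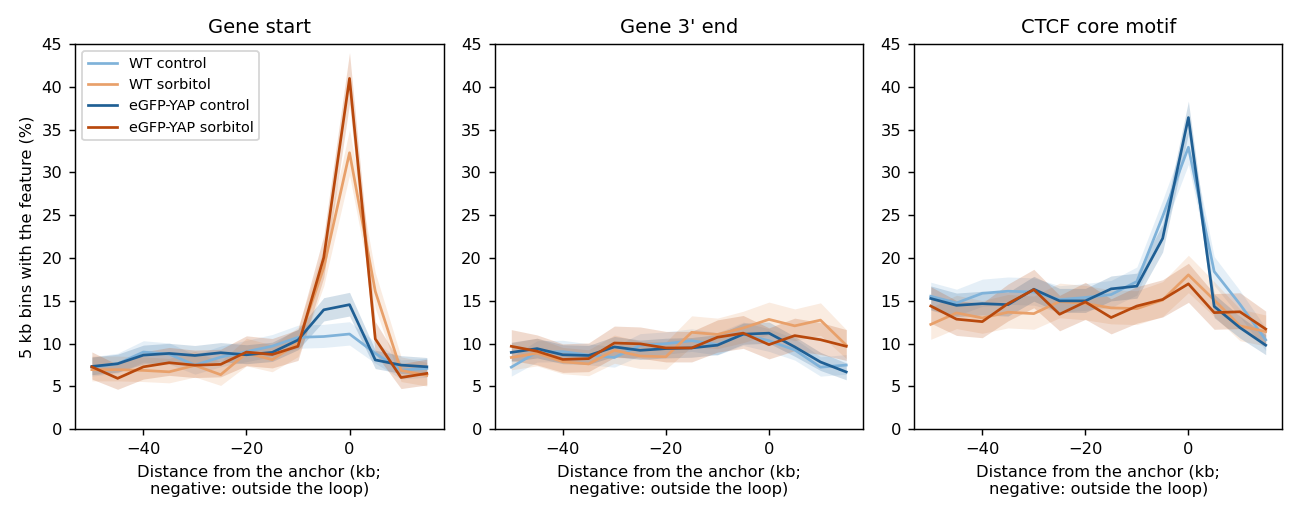
Share of 5 kb bins (vertical axis, percent) with a gene start, a gene 3′ end or a CTCF core motif by distance in kb from the anchors of short loops (horizontal axis; negative values lie outside the loop), with Wilson 95% intervals as bands. Starts are highest at the anchor in every list, most clearly with sorbitol (32.3% and 41.0%, against 11.1% and 14.6% in the controls). CTCF motifs are also highest there in every list, most clearly in the controls (32.9% and 36.4%, against 18.0% and 17.0% with sorbitol). The lower peaks of both features overlap the bins 5 kb outside in their intervals. The 3′ ends have no peak above 13% in any list.

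Gene 3′ ends differed less between conditions than the starts. The genome level was 3.11% of bins. A 3′ end lay at 10.3% (9.10 to 11.7) of short-loop anchors in the WT control, 12.8% (11.1 to 14.9) in WT sorbitol, 11.2% (10.0 to 12.5) in the eGFP-YAP control and 9.88% (8.22 to 11.8) in eGFP-YAP sorbitol. Sorbitol minus control was 2.49 points (0.23 to 4.87) in WT and -1.34 points (-3.46 to 0.95) in eGFP-YAP. The WT difference was -2.24 points (-6.60 to 2.30) when the limit was 50 kb. For loops over 75 kb, sorbitol minus control was 4.05 points (3.45 to 4.66) in WT and 3.54 points (2.94 to 4.17) in eGFP-YAP. Against longer loops, short loops had more 3′ ends at their anchors in 3 of the lists, by 5.29 points in the WT control, 3.74 in WT sorbitol and 5.49 in the eGFP-YAP control. In eGFP-YAP sorbitol the difference was 0.61 points, with an interval from -1.16 to 2.65. Moved by 100 kb, the short-loop anchors held a 3′ end in 7.13% to 8.19% of cases.

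Loops with a gene start at both anchors were more frequent with sorbitol in both lines. Such start-to-start loops numbered 14 of 1020 (1.37%, 0.82 to 2.29) in the WT control and 84 of 596 (14.1%, 11.5 to 17.1) in WT sorbitol. In eGFP-YAP they numbered 44 of 1247 (3.53%, 2.64 to 4.70) and 127 of 521 (24.4%, 20.9 to 28.2). Of all genome windows with the same spans, 0.25% have a start in both end bins. Sorbitol minus control was 12.7 points (10.0 to 15.8) in WT and 20.8 points (17.2 to 24.8) in eGFP-YAP. A start at either anchor was found in 20.9%, 50.5%, 25.6% and 57.6% of short loops, in the order WT control, WT sorbitol, eGFP-YAP control and eGFP-YAP sorbitol. Among start-to-start loops with genes on a single strand at each anchor, the genes ran away from each other in 26 of 65 (40.0%, 29.0 to 52.1) in WT sorbitol and 20 of 90 (22.2%, 14.9 to 31.8) in eGFP-YAP sorbitol.

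**Figure D5:**
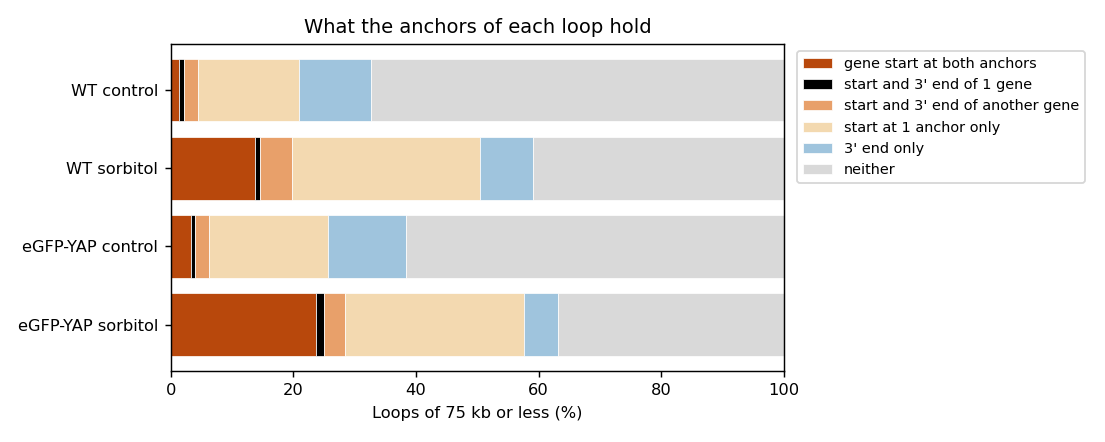
Share of short loops (horizontal axis, percent) by what their anchors hold in each of the 4 lists (vertical axis), each loop counted once with a gene's own start and 3′ end taking precedence over start to start. Loops with a start at both anchors make up 13.8% of WT sorbitol and 23.6% of eGFP-YAP sorbitol loops against 1.37% and 3.37% of control loops, while loops from a gene's start to its own 3′ end make up 1.34% or less of every list.

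Loops from the start of a gene to its own 3′ end were rare with and without sorbitol. There were 8 of 1020 (0.78%, 0.40 to 1.54) in the WT control, 5 of 596 (0.84%, 0.36 to 1.95) in WT sorbitol, 8 of 1247 (0.64%, 0.33 to 1.26) in the eGFP-YAP control and 7 of 521 (1.34%, 0.65 to 2.75) in eGFP-YAP sorbitol. Genome windows of the same spans join the start and 3′ end of a gene in 0.073% to 0.079% of cases. Sorbitol minus control was 0.05 points (-0.84 to 1.23) in WT and 0.70 points (-0.23 to 2.14) in eGFP-YAP, so neither interval excludes 0. With anchors widened by 5 kb on each side the differences were 3.66 points (1.38 to 6.24) and 3.33 points (0.90 to 6.18).

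The genes of these 28 loops were, by the rule that defines the loops, about as long as the span. QRICH1, on chromosome 3, was the one gene joined in more than 1 list: its loop of 65 kb was in WT sorbitol, the eGFP-YAP control and eGFP-YAP sorbitol, at the same bins. In the WT control the loops covered BCL2L1, which encodes an anti-apoptotic BCL2 relative, CDS2, CNTFR, FGL1, LMAN2, MMEL1, PDE4C and PSKH2. Beside QRICH1, those of the eGFP-YAP control covered SMARCB1, a core subunit of SWI/SNF chromatin remodellers, ABCC3, PAK6, PRSS12, RAB6B, WIPF2 and an unnamed gene. The WT sorbitol loops beside that of QRICH1 included those of DEPDC4, FAM118B and KIF17. The eGFP-YAP sorbitol list had OGA, which removes O-GlcNAc from proteins, STT3A, a catalytic subunit of the oligosaccharyltransferase, CD59, FMO5, ZNF385C and an unnamed gene beside QRICH1. These names were chosen after their values were seen.

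Enclosing exactly 1 gene was common, and the difference between conditions depended on which genes were counted. A gene was counted as enclosed when it lay wholly between the outer edges of both anchors. Exactly 1 gene was enclosed by 285 of 1020 loops (27.9%, 25.3 to 30.8) in the WT control, 165 of 596 (27.7%, 24.2 to 31.4) in WT sorbitol, 314 of 1247 (25.2%, 22.9 to 27.7) in the eGFP-YAP control and 151 of 521 (29.0%, 25.3 to 33.0) in eGFP-YAP sorbitol. Genome windows of the same spans enclose exactly 1 gene in 9.28% to 9.70% of cases. Sorbitol minus control was -0.26 points (-4.71 to 4.33) in WT and 3.80 points (-0.68 to 8.46) in eGFP-YAP. When genes of all types were counted, the differences were -7.18 points (-11.2 to -2.92) and -5.37 points (-9.28 to -1.18), and when exactly 1 protein-coding gene had to overlap the loop at all they were -14.9 and -19.0 points. Of the loops enclosing 1 gene, those that ran from its start to its 3′ end or from its 3′ end to its start numbered 8 of 285, 4 of 165, 5 of 314 and 4 of 151. The enclosed single genes had median lengths of 19.2 kb (WT control), 18.1 kb (WT sorbitol), 19.7 kb (eGFP-YAP control) and 27.7 kb (eGFP-YAP sorbitol), against 27.5 kb for all 19970 protein-coding genes. An enclosed gene cannot be longer than its loop, so the comparison with all genes is partly fixed by the rule.

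The other loops differed more. Loops enclosing 2 or more genes made up 13.8% (11.8 to 16.1) of the WT control and 26.7% (23.3 to 30.4) of WT sorbitol, and 18.1% (16.1 to 20.4) and 27.1% (23.4 to 31.0) in eGFP-YAP. Loops enclosing none made up 58.2%, 45.6%, 56.7% and 44.0%. A single gene body contained the whole loop in 17.5% of WT control, 13.9% of WT sorbitol, 18.0% of eGFP-YAP control and 11.5% of eGFP-YAP sorbitol loops. The last pair of intervals does not overlap (15.9 to 20.2 and 9.05 to 14.5), while the WT pair does (15.2 to 19.9 and 11.4 to 16.9).

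The CTCF core motif ran opposite to the gene starts. With at most 1 mismatch on either strand it was found in 8.69% of genome bins. It lay at 672 of 2040 short-loop anchors (32.9%, 30.9 to 35.0) in the WT control and 215 of 1192 (18.0%, 16.0 to 20.3) in WT sorbitol. In eGFP-YAP it lay at 908 of 2494 (36.4%, 34.5 to 38.3) and 177 of 1042 (17.0%, 14.8 to 19.4). Sorbitol minus control was -14.9 points (-17.8 to -11.9) and -19.4 points (-22.3 to -16.4). For longer loops the shares were 24.3% and 21.5% in WT and 33.9% and 29.4% in eGFP-YAP, so short control loops had the motif more often than longer ones and short sorbitol loops less often. At anchors without a gene start the motif was found in 32.9% and 16.5% in WT and 36.5% and 15.4% in eGFP-YAP. The surroundings of short loops also lay above the genome level. In bins 50 kb outside them the motif was found in 15.5% (WT control), 12.2% (WT sorbitol), 15.3% (eGFP-YAP control) and 14.4% (eGFP-YAP sorbitol).

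The orientation of the motifs was measurable in few sorbitol loops. Where neither anchor carried matches on both strands, the pair pointed towards each other in 85 of 119 WT control loops (71.4%, 62.7 to 78.8) and 142 of 182 eGFP-YAP control loops (78.0%, 71.5 to 83.4). In the sorbitol lists they did so in 7 of 22 WT loops (31.8%, 16.4 to 52.7) and 11 of 18 eGFP-YAP loops (61.1%, 38.6 to 79.7). In WT, sorbitol loops with a control partner had a motif share near that of the control list: 33.0% (26.4 to 40.2) of their anchors had it, against 15.5% (13.4 to 17.8) for sorbitol-only loops. In eGFP-YAP the values were 25.3% (19.4 to 32.3) and 15.4% (13.1 to 17.9).

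Base composition differed from the genome in all 4 lists, but the lists differed from each other mainly in CG dinucleotides. Median GC content of short-loop anchors was 46.9%, 46.5%, 46.3% and 47.0% in the order WT control, WT sorbitol, eGFP-YAP control and eGFP-YAP sorbitol, against 39.7% for all bins. The ratio of observed to expected CG dinucleotides had medians of 0.264 (0.258 to 0.270), 0.332 (0.321 to 0.347), 0.266 (0.260 to 0.270) and 0.406 (0.385 to 0.428), against 0.200 for all bins. In the 250 bases before the RefSeq start, genes starting at short-loop anchors had medians of 19, 22, 20 and 22 CG dinucleotides, against 17 for all genes. RefSeq windows were matched by symbol for 195 of 253, 366 of 462, 317 of 418 and 424 of 520 genes. The letters TATAAA, on either strand, occurred in these 250 bases in 9.24% of all genes matched. For genes at short-loop anchors the shares were 7.18% (4.32 to 11.7), 4.10% (2.50 to 6.65), 8.83% (6.18 to 12.5) and 3.54% (2.16 to 5.75). For genes at anchors of loops over 75 kb they were 9.90%, 4.75%, 7.08% and 5.48%, and the median CG counts were 19, 23, 20 and 23. Anchors of these longer loops had median GC contents of 42.2%, 46.1%, 42.2% and 46.8% and CG ratios of 0.222, 0.279, 0.227 and 0.301.

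The loops found in both lines were compared in the same way, at their WT coordinates and with fewer loops. Of the 242 anchors of the 121 loops that were sorbitol-only in both lines, 51.7% (45.4 to 57.9) held a gene start, against 11.5% (9.47 to 14.0) of the 762 anchors of the 381 loops that were control-only in both. The CTCF core motif lay at 16.1% (12.0 to 21.3) and 44.8% (41.3 to 48.3). A 3′ end lay at 9.09% (6.08 to 13.4) and 13.4% (11.2 to 16.0). Exactly 1 gene was enclosed by 41 of the 121 (33.9%, 26.1 to 42.7) and 127 of the 381 (33.3%, 28.8 to 38.2). In WT coordinates 33 of the 121 joined 2 gene starts (27.3%, 20.1 to 35.8), and 5 of the 381 did (1.31%, 0.56 to 3.03). Of the loops in these sets, 1 of the 121 and 4 of the 381 joined the start and the 3′ end of 1 gene.

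Loops that were sorbitol-only in both lines and enclosed 1 gene in WT were described by the genes at their WT coordinates. Of the 8 highest-scoring on different chromosomes, the first had no gene start or 3′ end at an anchor in WT. In eGFP-YAP its left anchor held the 3′ end of PLPP2 and its right anchor the start of MIER2. It spanned 65 kb (60 kb in eGFP-YAP) on chromosome 19 and stood at percentiles 89.6 (WT) and 84.6 (eGFP-YAP). It enclosed the lipid phosphatase gene PLPP2, and in eGFP-YAP also MIER2. A loop of 60 kb on chromosome 6 joined chr6:151390001-151395000 to chr6:151450001-151455000 in both lines, at percentiles 76.9 (WT) and 87.6 (eGFP-YAP). ZBTB2, which encodes a zinc-finger transcription factor, starts in its left anchor, and RMND1, needed for mitochondrial translation, and ARMT1 start in its right anchor. On the X chromosome a loop of 60 kb joined chrX:1390001-1395000, with the start of the mitochondrial ADP/ATP carrier gene SLC25A6, to chrX:1450001-1455000, with the start of ASMTL. Its percentiles were 66.4 and 87.6. On chromosome 1 a loop of 60 kb ran from chr1:202965001-202970000, at the start of the cytochrome b5 reductase gene CYB5R1, to chr1:203025001-203030000, at the start of PPFIA4, a liprin scaffold gene, and enclosed TMEM183A. Its percentiles were 70.6 and 73.9. Its left anchor held the only CTCF match of these loops, with 1 mismatch. These 3 loops of 60 kb join gene starts, including those whose sequences are given above, and the enclosed gene is joined at its start (RMND1, ASMTL) or at neither end (TMEM183A).

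Others of this set had a start at 1 anchor only. On chromosome 11 a loop spanned 65 kb in WT and 75 kb in eGFP-YAP. Its left anchor, chr11:33700001-33705000, held the start of C11orf91 and the 3′ end of CD59. The loop enclosed CD59, which encodes an inhibitor of the complement membrane attack complex, and in eGFP-YAP also FBXO3. On chromosome 7 a loop of 40 kb had the starts of PNPLA8, THAP5 and DNAJB9, an endoplasmic reticulum co-chaperone gene, in its right anchor, chr7:108565001-108570000, and enclosed THAP5. On chromosome 10 a loop of 75 kb had the start of the splicing factor gene SMNDC1 in its right anchor, chr10:110300001-110305000, and its other anchor, chr10:110225001-110230000, lay in MXI1, which encodes an antagonist of MYC. On chromosome 22 a loop of 65 kb enclosed the uroplakin gene UPK3A and, like that at PLPP2, had no start or 3′ end at an anchor in WT. In eGFP-YAP its right anchor held the start of FAM118A. In WT coordinates 3 of the 8 loops had starts at both anchors, 3 at 1 anchor and 2 at none. The eGFP-YAP partners of those 2 each had a start in the right anchor. One further loop, on chromosome 11, ran for 50 kb from the start of FAM118B to its 3′ end in WT at percentile 59.0. Its eGFP-YAP partner spanned 60 kb at percentile 13.4, and the right anchor of that partner lay beyond the 3′ end.

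Start-to-start loops in both lines' coordinates numbered 23 of the 121. Beside the ZBTB2, SLC25A6 and CYB5R1 loops described above, which are among the highest of them by mean percentile, the 5 highest joined UNK to WBP2, which encodes a WW-domain binding partner of YAP, over 75 kb on chromosome 17 (percentiles 85.6 and 85.2), and CHCHD4, of the mitochondrial import machinery, to XPC, of nucleotide excision repair, and LSM3 over 55 kb on chromosome 3 (90.6 and 62.4). Further pairs were NELFCD with PRELID3B over 60 kb on chromosome 20, OSBP with PATL1 over 50 kb on chromosome 11 and HIBADH with TAX1BP1 over 75 kb on chromosome 7. These pairs were chosen after their values were seen. By the rule that selects them, all 5 carried a start at each end in both lines.

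The control-only loops with the highest scores in both lines had no gene start at either anchor. They lay on chromosome 19 around LYPD3 and PHLDB3 (75 kb, percentiles 93.3 and 89.1) and on chromosome 8 around the claudin gene CLDN23 (65 kb, 98.0 and 79.3). Others lay on chromosome 11 around the potassium channel gene KCNJ5 and TP53AIP1 (70 kb, 95.9 and 79.3) and on chromosome 17 at the integrin gene ITGA3 (60 kb, 91.2 and 83.3). The loop on chromosome 12 had its right anchor in TMEM120B (70 kb in WT and 75 kb in eGFP-YAP, 83.3 and 90.6). A CTCF match with at most 1 mismatch was found at an anchor of each of the 5, and the ITGA3 loop had one at each anchor.

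Of the 24 short loops found in all 4 lists, 13 had no gene start at an anchor, 9 had one at 1 anchor and 2 at both. A start lay at 13 of their 48 anchors (27.1%, 16.6 to 41.0). The highest-scoring on different chromosomes included that at RGS3, a regulator of G-protein signalling, on chromosome 9 (65 kb, percentiles 94.4 and 95.8 in the control lists). Another lay around CALCOCO2, an autophagy receptor gene, on chromosome 17 (70 kb in WT and 65 kb in eGFP-YAP, 90.6 and 88.8). Others lay around ZSWIM4 on chromosome 19 (75 kb, 87.6 and 84.0) and at NGDN and ZFHX2 on chromosome 14 (66.2 and 76.5). The latter spanned 75 kb in WT and 80 kb in eGFP-YAP, over the limit. The last had its left anchor in the quinone reductase gene NQO2 on chromosome 6 (65 kb in WT and 60 kb in eGFP-YAP, 55.2 and 79.2). In WT coordinates each of these 5 had at least 1 CTCF match with at most 1 mismatch at an anchor. Only the ZSWIM4 loop had a gene start there, that of NANOS3. In eGFP-YAP the right anchor of the NGDN loop held the start of ZFHX2. The match of the NQO2 loop lay outside both of its eGFP-YAP anchors.

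By gene, starts were spread thinly over the short loops. In the order WT control, WT sorbitol, eGFP-YAP control and eGFP-YAP sorbitol, 253, 462, 418 and 520 of 19962 protein-coding gene symbols started at a short-loop anchor (1.27%, 2.31%, 2.09% and 2.60%). The gene used most often was FOXK1, a forkhead transcription factor gene, with 5 short loops over the 4 lists (1, 1, 2 and 1). Next came 9 genes with 4 loops each. FEM1A, PCBP1, SIX4, SNAPC2, TFEB and WDR18 had 1 loop in every list. CARNMT1, GTPBP4 and OSBP had 2 loops in each sorbitol list and 0 in each control list.

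Gene lists tied to osmotic stress, YAP and other functions were counted at these anchors, with no test. None of 21 immediate early genes started at a short-loop anchor in any list. Of 20 genes of osmotic stress and cell volume, 0, 0, 1 and 1 did, the members being the p38 kinase gene MAPK14 and the chloride-sensing kinase gene WNK1. Of 20 YAP and TEAD targets, 2, 2, 3 and 0 did (10.0%, 10.0%, 15.0% and 0%), the members being AMOTL2, CRIM1, FJX1 and GADD45A. In 3 lists these shares were above those of all genes, on 2 or 3 genes each, and in eGFP-YAP sorbitol none of the list was found. Of 20 heat shock and chaperone genes, 0, 1, 0 and 2 did (BAG3, HSPE1 and TCP1). Of 81 cytosolic ribosomal protein genes the counts were 0, 3, 3 and 6 (0% to 7.41%), and of 73 replication-dependent histone genes, which lie in clusters and so share anchors, 3, 3, 9 and 5 (4.11%, 4.11%, 12.3% and 6.85%).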

How the data were processed

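In situ Hi-C was done on 32 samples, per the labels, and 4 loop lists were analysed, whose names give 4 groups with 14 labelled samples. Per the labels' protocols, DNA was cut with MboI, filled in with biotin and ligated. Per the file headers, loops were called with SIP, and the builds hg38 and GRCh38 come from the submitters' processing notes. Caller version and settings, aligner, depth and the replicates pooled are not given in the sources used here. The deposited peak score has no stated scale and was used for ranks within a list. Enrichment probability, a deposited fraction, was at least 0.900 throughout and was not filtered. Anchors are 5 kb wide, 0 columns of per-sample values had no group, and 4 loops with reversed anchors were sorted.

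Loops of 75 kb or less were selected by the distance between anchor starts. Gene starts and 3′ ends are from GENCODE release 44 (19970 protein-coding genes), and promoter sequences from RefSeq (GRCh38.p14). Backgrounds were all sequenced bins, loops over 75 kb, anchors moved by 100 kb and all genome windows of the same span. Shares have Wilson, differences Newcombe, ratios exact and medians order-statistic 95% intervals (Python 3.11.15, pandas 2.3.3, scipy 1.17.1, statsmodels 0.14.6). Matching and annotation were tested on simulated loops. Named loops were ranked by mean score percentile over the lines, at most 1 per chromosome in a set. The first set was 8 loops sorbitol-only in both lines and enclosing 1 gene in WT coordinates. The others were up to 8 more from start to 3′ end (1 existed), 5 control-only and 5 in all 4 lists. The 5 genes starting at most loops were also named, with ties. The members, lists and comparisons were chosen with earlier results of these data known. The alternatives were limits of 50 kb and 100 kb, the upper 50% of each list by score, other matching distances, merged neighbours, wider anchors, other gene sets and enclosure rules, and no motif mismatch. One gene joined from start to 3′ end is not reported here.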

Additional observations from a re-analysis of the deposited data

Results flagged for a closer look

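Of 11 contrasts computed in both lines, 3 had opposite signs in WT and eGFP-YAP cells, and none of these differences between the lines was tested. With 1 list per condition, each sign rests on a single list. The share of short-loop anchors with a gene 3′ end, sorbitol minus control, was 2.49 points in WT and -1.34 points in eGFP-YAP. The share of short loops enclosing a single gene, sorbitol minus control, was -0.26 points in WT and 3.80 points in eGFP-YAP, with both intervals spanning 0. The share of control loops called again with sorbitol, loops of 75 kb or less minus longer ones, was 1.40 points in WT and -2.38 points in eGFP-YAP. In the lower 50% of the eGFP-YAP control list by score the order was the opposite, with 6.14% of short and 3.92% of longer loops called again.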

How the results depend on the processing

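With 1 list per condition no replicate could be left out, and no paired analysis was possible because the lists carry no replicate. Sequencing depth is unknown and limits every count. Of 84 alternatives over 16 results, 44 stayed within the 95% interval of the reported value, 39 moved outside it and 1 turned the sign of a difference whose interval excluded 0; the cause was not tested. Of 5 differences whose reported interval spans 0, 4 changed sign under 12 alternatives: single genes in both lines, start-to-3′-end loops in WT and 3′ ends in eGFP-YAP, so none of these has a settled direction. With a limit of 50 kb, 3′ ends in WT turned to -2.24 points; the ratios were 0.758 (WT) and 0.505 (eGFP-YAP), sorbitol loops without a control loop 90.4% and 88.6%, start-to-3′-end loops -1.80 and 2.21 points, and single genes in WT -8.99 points. With 100 kb, the WT ratio was 0.521 and WT sorbitol loops without a control loop 81.1%. For the upper 50% by score the searched list was also cut to its upper 50%, unlike in the Results, where the whole list was searched. Control loops called again were then 5.33% and 4.64%, and sorbitol loops without a control loop 91.9% and 92.7%. In the same upper 50% the eGFP-YAP ratio was 0.464, WT starts 33.3 points, eGFP-YAP single genes -1.71 points and CTCF motifs -25.1 and -30.6 points. Matching in the same bins gave 1.27% and 1.92% of control loops called again and 97.8% and 95.4% of sorbitol loops without a control loop; matching within 25 kb gave 17.2% and 12.1%, and 74.3% and 74.3%. Wider anchors gave starts of 30.8 and 31.2 points, start-to-3′-end loops of 3.66 and 3.33 points and WT CTCF motifs of -19.5 points. With no mismatch CTCF motifs were -5.71 and -7.20 points. Genes of all types gave single genes of -7.18 and -5.37 points and eGFP-YAP 3′ ends of 2.39 points. With exactly 1 gene overlapping, single genes were -14.9 and -19.0 points, and between inner edges the eGFP-YAP value was -1.80 points. Gene starts stayed higher and CTCF motifs lower with sorbitol in both lines under every alternative tried.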
